A study of Mus musculus with 10 samples.

Results

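Macrophages and their relatives are resident immune cells of the ovary, and 35 genes that mark them were followed across 10 mouse ovary libraries. The genes were chosen by symbol, and all 35 were found once each among the 24306 genes of the deposited count table. None of the 35 was in the authors' deposited table of 185 differentially expressed genes. Every one of them passed the filter on low counts in each fit. Their summed level ran from 546 to 1005 CPM (counts scaled to a common library size) between libraries, and both extremes were control ovaries. No gene of the set differed between genotypes past the threshold in any of 4 comparisons, in which the main test called at most 0.111% of all tested genes.

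The ovaries were 6 weeks old and of mixed C57BL/6 and 129 strain, and all of them carried f/f alleles of Rara, Rarb and Rarg, which encode the retinoic acid receptors. The 5 controls were Dmrt1 +/+ and Sf1-Cre-, so their receptor genes were floxed but not deleted. The 3 Rar mutants were Dmrt1 +/+ and Sf1-Cre+. The 2 Dmrt1 het Rar mutants were Sf1-Cre+ and in addition Dmrt1 fl/+, Dmrt1 being a transcription factor of gonadal sex. Sf1-Cre is driven by the promoter of the gene also called Nr5a1 and acts in somatic gonadal and steroid-producing cells. The study's title sets the question of whether retinoic acid signalling is needed in the somatic ovary. Its design text speaks of 5 replicates in each of a pair of genotypes, so all 5 Rar-deleted libraries were also compared with controls as 1 group. Nothing in the labels says whether replicates were separate animals, so p-values measure the spread between these libraries.

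Ovarian macrophages live in the stroma, around follicles and in the corpus luteum, where they clear dying cells and debris. They depend on the receptor encoded by Csf1r, tag debris with complement C1q, take it up through Fc and scavenger receptors, and degrade it in lysosomes. Monocytes that enter from blood carry Ccr2, while dendritic cells and activated macrophages show peptides on MHC class II. Neutrophils enter in numbers around ovulation.

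Library totals ran from 21064856 to 25920131 counts. Summed markers of granulosa cells (1643 to 4454 CPM), corpus luteum (3983 to 11945 CPM) and oocytes (144 to 510 CPM) were present in all 10 libraries. Along the first principal component of all genes, which held 34.8% of the variance, 4 libraries lay between -55.9 and -43.8 and the other 6 between 4.46 and 57.8. The 4 were both Dmrt1 het Rar mutants, control 1 and Rar mutant 1, and their sample titles carry numbers under 7800. The labels do not say what these numbers stand for, and they are used below only as a way in which the libraries split. Rar mutants 2 and 3 stood apart in another way, with summed ovulation markers (Ptgs2, Pgr, Tnfaip6, Ptx3, Ereg, Btc and Adamts1) of 649.7 and 1580 CPM against 28.8 to 65.2 CPM in the other 8 libraries. In Rar mutant 2, Adamts1 alone made up 620 CPM of that sum, whereas in Rar mutant 3 Ereg had 557 CPM and Ptgs2 209 CPM. Ptgs2, Tnfaip6, Ereg and Btc were above controls in Rar mutant 2 too, Ptgs2 at 4.07 CPM. Pgr and Ptx3 were not, with 1.37 and 2.24 CPM against 1.07 to 2.11 and 2.64 to 5.41 CPM in controls.

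The promoter windows of the set were examined because the genes are known as targets of a few shared regulators. RefSeq windows on GRCm38.p6, from 250 bases before to 50 after a start site, were searched for 28 of the 35 genes. An 8-base form of the PU.1-type motif, GAGGAAGT, was looked for on both strands, PU.1 being the master transcription factor of myeloid cells. It lay in windows of 4 of the 28 genes, which had 32 windows, and in 3.20% of 32851 windows of all genes. The first is a count of genes and the second a share of windows, and enrichment was not tested. Stretches around it are shown here in capitals for the motif, which reads ACTTCCTC in each since it lay on the opposite strand.
S100a8: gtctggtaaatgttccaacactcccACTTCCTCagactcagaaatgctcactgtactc
C1qc: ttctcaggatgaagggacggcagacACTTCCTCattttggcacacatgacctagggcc
Ctss: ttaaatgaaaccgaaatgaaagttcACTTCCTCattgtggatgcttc
Cd53: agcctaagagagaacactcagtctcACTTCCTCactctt
The S100a8 stretch is chr3:90668874-90668931 on the plus strand, with the motif starting at position -172 from the start site. The C1qc stretch is chr4:136893077-136893134 on the minus strand, with the motif at -195. The Ctss stretch is chr3:95526759-95526805 on the plus strand, and its motif starts at -2. The Cd53 stretch is chr3:106790130-106790168 on the minus strand, where the motif starts at 6 past the start site.

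The Y box, CTGATTGG, is the element bound by the factor NF-Y in MHC class II promoters. Among the 28 genes and their 32 windows, and against 4.10% of the windows of all genes, it was found for 2 genes, H2-Aa and H2-Eb1. These genes encode the alpha and beta chains of the antigen-presenting molecules I-A and I-E.
H2-Aa: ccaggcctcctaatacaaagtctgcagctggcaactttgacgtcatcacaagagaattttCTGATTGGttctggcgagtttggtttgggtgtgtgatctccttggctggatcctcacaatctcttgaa
H2-Eb1: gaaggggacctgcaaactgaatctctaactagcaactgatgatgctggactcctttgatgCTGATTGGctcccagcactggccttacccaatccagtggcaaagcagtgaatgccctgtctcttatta
The H2-Aa stretch is chr17:34287807-34287934 on the minus strand and the H2-Eb1 stretch is chr17:34305745-34305872 on the plus strand. Capitals mark the Y box, which started at -51 in H2-Aa and at -62 in H2-Eb1. A match is a description of the letters and not a measured binding site.

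Levels of different genes were set side by side only per length, as the FPKM deposited by the authors. Lyz2, which encodes the lysozyme of macrophages and neutrophils, was the most abundant of the 35. Its FPKM was 157, 173, 233, 151 and 108 in controls 1 to 5, 191, 179 and 99.5 in Rar mutants 1 to 3, and 70.0 and 142 in Dmrt1 het Rar mutants 1 and 2. The groups overlapped throughout, and the lowest and the highest library differed 3.33-fold in CPM. Lyz2 has a close paralog, Lyz1, so its reads may be shared.

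Cd74, the invariant chain that escorts MHC class II to the endosome, was next. Its FPKM was 54.5, 48.5, 40.1, 34.98 and 35.4 in controls, 53.1, 48.9 and 50.5 in Rar mutants and 42.4 and 50.6 in Dmrt1 het Rar mutants. It was also the steadiest gene of the set, with a coefficient of variation of 15.3% over 10 libraries. The B chain of complement C1q, C1qb, followed with 31.8, 40.7, 75.7, 42.3 and 26.2 FPKM in controls, 35.9, 56.7 and 37.5 in Rar mutants, and 26.2 and 36.9 in Dmrt1 het Rar mutants. Control 3 was its highest library.

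Tyrobp encodes DAP12, the ITAM adaptor through which TREM2 signals. It stood at 23.9, 35.04, 66.1, 36.9 and 22.5 FPKM in controls, 29.9, 40.8 and 27.8 in Rar mutants, and 21.3 and 27.1 in Dmrt1 het Rar mutants. C1qa, the A chain of C1q, stood at 22.9, 32.4, 46.0, 30.8 and 20.5 FPKM in controls, 28.2, 43.3 and 28.2 in Rar mutants, and 20.8 and 24.7 in Dmrt1 het Rar mutants. Both were highest in control 3, as C1qb was. Over all 10 libraries the mean FPKM was 150 ± 48.1 for Lyz2, 45.9 ± 7.13 for Cd74, 41.0 ± 15.0 for C1qb, 33.1 ± 13.3 for Tyrobp and 29.8 ± 8.81 for C1qa (SD, n = 10). Below Lyz2, neighbours in this order did not differ beyond that spread.

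**Figure D1:**
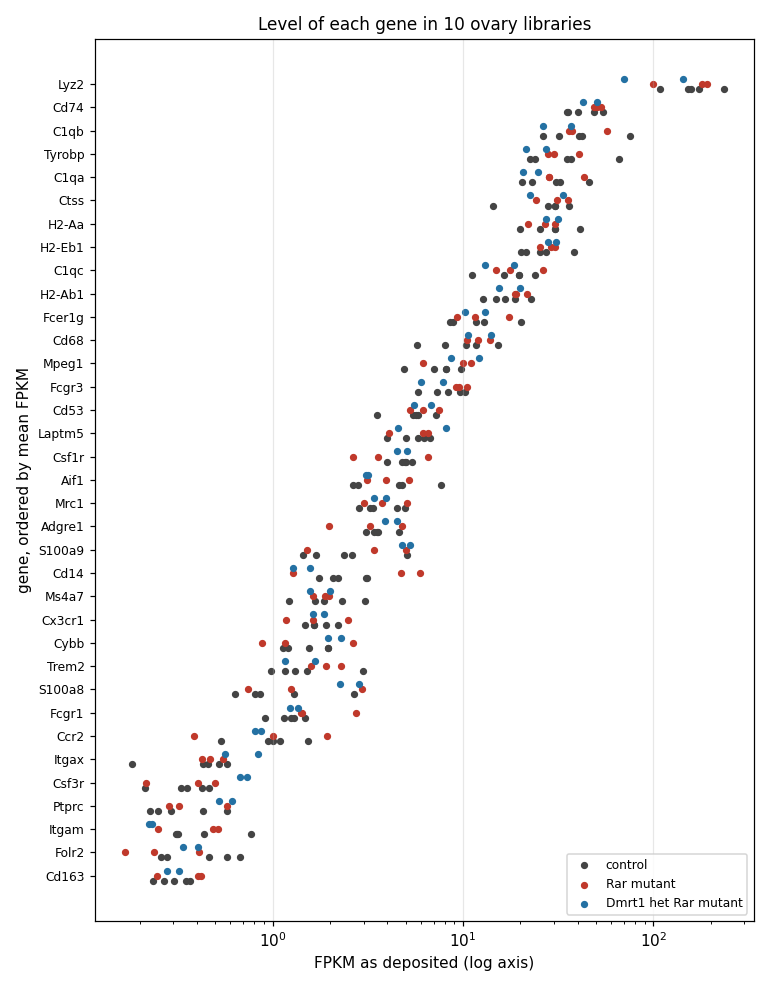
FPKM of the 35 genes as the authors deposited it, on a log axis, with 1 point per library and genes ordered by their mean over 10 libraries. Lyz2 is at the top with a mean of 150 and Cd163 at the bottom with 0.32, and the points of the 3 groups overlap for most genes.

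The lower end of the order held receptors of tissue-resident macrophages, integrins, Ptprc and Csf3r. The hemoglobin scavenger receptor gene Cd163 had a mean of 0.32 FPKM and the folate receptor gene Folr2 0.38 FPKM. The integrin genes Itgam and Itgax, which encode CD11b and CD11c, had means of 0.39 and 0.50 FPKM, and the neutrophil gene Csf3r had 0.43 FPKM. Ptprc, which encodes the leukocyte antigen CD45, had 0.41 FPKM. FPKM divides reads by length, and Ptprc has the longest summed exons of the set, 18313 bases. In reads it was not scarce, with 104 to 268 counts per library and a mean of 7.52 CPM. Folr2 rested on the fewest reads, 6 to 23 per library. By contrast the mannose receptor gene Mrc1 had 3.81 FPKM, Csf1r 4.63 FPKM and Adgre1, which encodes F4/80, 3.65 FPKM.

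The remaining members lay between these ends. Of the general macrophage genes, Cd68, a lysosomal glycoprotein, had a mean of 11.2 ± 2.87 FPKM and Mpeg1, the pore-forming perforin-2, 8.60 ± 2.20 FPKM (SD, n = 10). Aif1, which encodes the actin-binding protein IBA1, had 4.10 ± 1.55 FPKM, and the membrane gene Ms4a7 1.92 ± 0.50 FPKM. Ctss, the cathepsin that cleaves the invariant chain, had 28.6 ± 6.74 FPKM, and C1qc, the third C1q chain, 18.1 ± 4.61 FPKM. The 3 C1q genes lie side by side on chromosome 4, from 136880129 to 136898803 (GRCm38).

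Among receptors, the IgG receptor gene Fcgr3 had 8.44 ± 1.65 FPKM and Fcer1g, the signalling chain that Fc receptors share, 12.4 ± 3.77 FPKM. The class II beta chain gene H2-Ab1 had 18.1 ± 3.11 FPKM. Cx3cr1, the fractalkine receptor gene, had 1.76 ± 0.37 FPKM, above the 1.01 ± 0.45 FPKM of Ccr2 in the mean but within reach of its spread. The lysosomal membrane gene Laptm5 had 5.71 ± 1.2999 FPKM and the tetraspanin gene Cd53 5.88 ± 1.13 FPKM. Coefficients of variation over 10 libraries ran from 15.3% for Cd74 to 58.4% for S100a8, and Cd14 was next to that with 57.1%.

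Some reads of the set could belong to neighbouring genes. In GENCODE M21, 3450 exonic bases of Itgam are shared on the same strand with the predicted gene Gm49368, so Itgam values are uncertain. Exons of Csf1r overlap those of Hmgxb3 on the opposite strand by 873 bases, and those of Folr2 overlap Gm10602 by 975 bases. Whether the counting used strand is not given in the sources used here.

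The genes did not vary independently between libraries, and the order of libraries did not follow genotype. Values in CPM, scaled by TMM to library composition, were summed over the 35 genes. The sum was 839, 834, 1005, 762 and 546 CPM in controls 1 to 5, 890, 911 and 653 CPM in Rar mutants 1 to 3, and 623 and 818 CPM in Dmrt1 het Rar mutants 1 and 2. The highest and the lowest library were both controls. Control 3 had the highest value for 12 of the 35 genes and control 5 the lowest for 20. Rar mutant 2 was highest for 7 genes and Rar mutant 3 lowest for 7. In bulk tissue, fewer myeloid cells and less RNA per cell cannot be told apart.

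On a log2 scale relative to each gene's mean over the 10 libraries, the median of the 35 genes was -0.48 in control 5 and 0.36 in Rar mutant 2, and it lay between -0.19 and 0.13 in the other 8. The mean of these medians was -0.05 ± 0.26 in controls (SD, n = 5), 0.09 ± 0.28 in Rar mutants (n = 3) and 0.01 ± 0.14 in Dmrt1 het Rar mutants (n = 2). Differences between group means were thus smaller than the SD among controls.

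**Figure D2:**
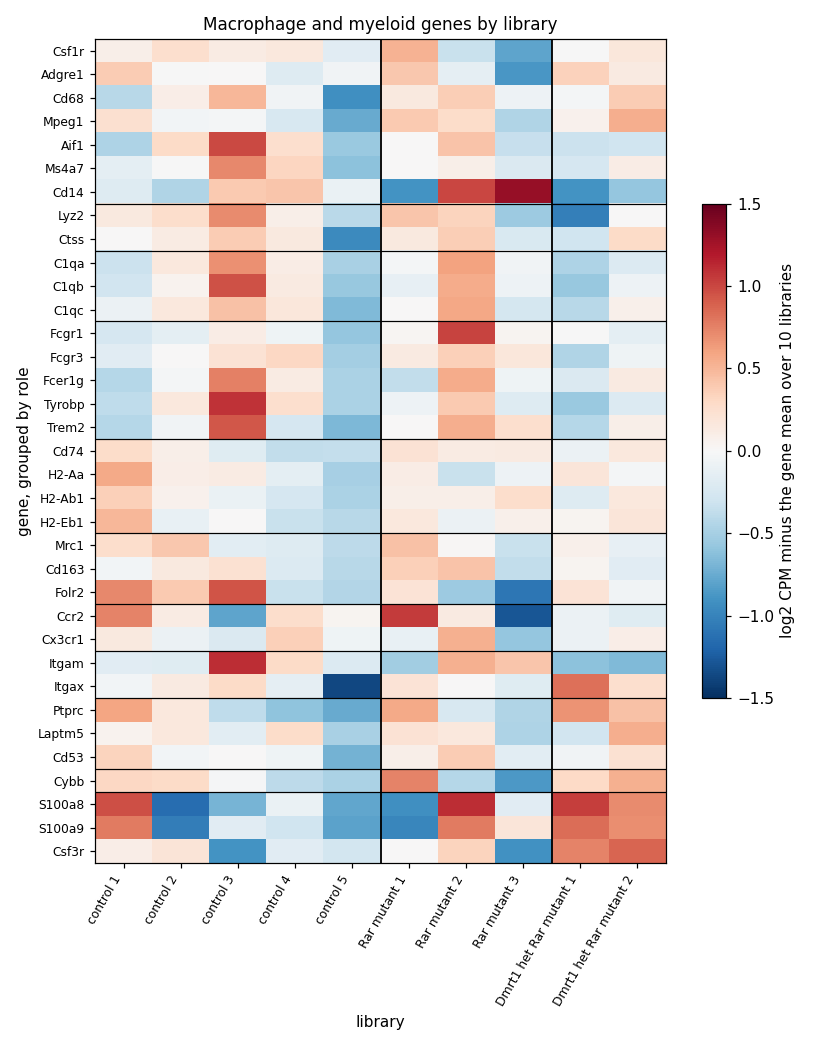
Log2 CPM of each gene (rows, grouped by role) in each library (columns, grouped by genotype), as the difference from that gene's mean over 10 libraries. Control 5 is blue for nearly all genes and is the lowest library for 20 of them, control 3 is red for the C1q, Fc and TREM receptor genes, and no group of columns is of 1 colour.

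The role groups did not all follow the same libraries. In control 3, the median relative log2 level was 0.68 for the 3 C1q genes, 0.76 for the 5 Fc and TREM receptor genes and their adaptors, and 0.55 for the lysosomal genes Lyz2 and Ctss. In the same library it was -0.05 for the 4 genes of MHC class II presentation and -0.51 for the chemokine receptor genes Ccr2 and Cx3cr1. It was 0.23 for the scavenger and uptake receptor genes, below the 0.39 of control 2, and Cybb and Mpeg1 stood at -0.02 and -0.03. The MHC class II genes were highest in control 1, at a median of 0.43, where the C1q genes stood at -0.28.

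Control 3 also carried more summed erythroid transcripts (1635 CPM against 297 to 662 CPM in the other controls) and granulosa transcripts (4454 CPM against 1643 to 2628 CPM). Their part in its myeloid values was not tested. Single genes of the TREM2 pathway showed the same library. Trem2, a lipid-sensing receptor of phagocytes, had 5.81, 7.51, 14.9, 6.57 and 4.90 CPM in controls 1 to 5.

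Pooled Rar-deleted ovaries were compared with controls first. A gene was called where edgeR's quasi-likelihood test gave a p under 0.05 after Benjamini-Hochberg adjustment. By that rule 0 of 35 genes were called, where 0.111% of all 18954 tested genes were. No member had an unadjusted p under 0.05, against 8.47% of all genes. DESeq2 called 0 of the 35 and 0.745% of all genes. The median log2 fold change of the 35 was 0.08 and that of all genes 0.00, and 21 of the 35 had a positive sign. Not 1 of the 35 had groups that did not overlap, against 1.76% of all genes.

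For 27 of the 35 genes the 95% confidence interval of this pooled log2 fold change lay within -1 and 1. Csf1r, the growth factor receptor that defines the lineage, had a log2 fold change of -0.12 with an interval from -0.58 to 0.35. Adgre1 had 0.01, with an interval from -0.49 to 0.51. For Mrc1 it was 0.02, from -0.39 to 0.44. These intervals do not reach a 2-fold change in either direction, and they leave smaller differences undecided.

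In Rar mutants against controls, edgeR called 0 of the 35 genes and 0.00972% of 20570 tested genes. DESeq2 called 0 of the 35 and 1.74% of all genes. The median log2 fold change was 0.10 over the 35 and -0.02 over all genes, and 24 of the 35 were positive. The groups overlapped for all 35, whereas 5.14% of all genes had groups that did not. The interval lay within -1 and 1 for 28 genes.

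Fcgr1 was the 1 member with an unadjusted p under 0.05 there, against 9.45% of all genes. It encodes the high-affinity IgG receptor CD64. It had 2.99, 3.22, 3.85, 3.38 and 2.37 CPM in controls, 3.62, 7.18 and 3.65 CPM in Rar mutants and 3.53 and 3.20 CPM in Dmrt1 het Rar mutants. Only Rar mutant 2 lay above all controls, and the other 2 Rar mutants lay inside the control range. Rar mutants differed from controls by 0.61 ± 0.27 on the log2 scale (SE), with an edgeR adjusted p of 0.518.

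Cd14, the lipopolysaccharide co-receptor of monocytes and macrophages, split the Rar mutants. It had 3.28, 2.74, 4.90, 4.997 and 3.50 CPM in controls, 2.01, 7.47 and 9.27 CPM in Rar mutants 1 to 3, and 2.02 and 2.50 CPM in Dmrt1 het Rar mutants. The 2 high values were in Rar mutants 2 and 3, the libraries with 649.7 and 1580 CPM of summed ovulation markers, and Rar mutant 1 had the lowest value of all 10. The part of these markers in the Cd14 values was not tested. Rar mutants against controls gave a log2 fold change of 0.69 ± 0.41 (SE; edgeR adjusted p = 0.669).

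Among libraries with the higher title numbers alone, Rar mutants 2 and 3 were compared with controls 2 to 5. There edgeR called 0 of 35 members and 0.724% of all genes. At an unadjusted p under 0.05 stood 5 of the 35 genes, against 14.7% of all genes. Cd14 had a log2 fold change of 1.05, Fcgr1 0.75, S100a8 1.22 and S100a9 1.05, while Csf1r had -0.65, with edgeR adjusted p from 0.147 to 0.331. With the title-number set as a term in the fit of all libraries, 0 of 35 were called in each genotype comparison. The shares of all genes were then 0.211% for the pooled comparison, 0.413% for Rar mutants, 0.00486% for Dmrt1 het Rar mutants against controls and 0.0% between both kinds of Rar-deleted ovary.

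**Figure D3:**
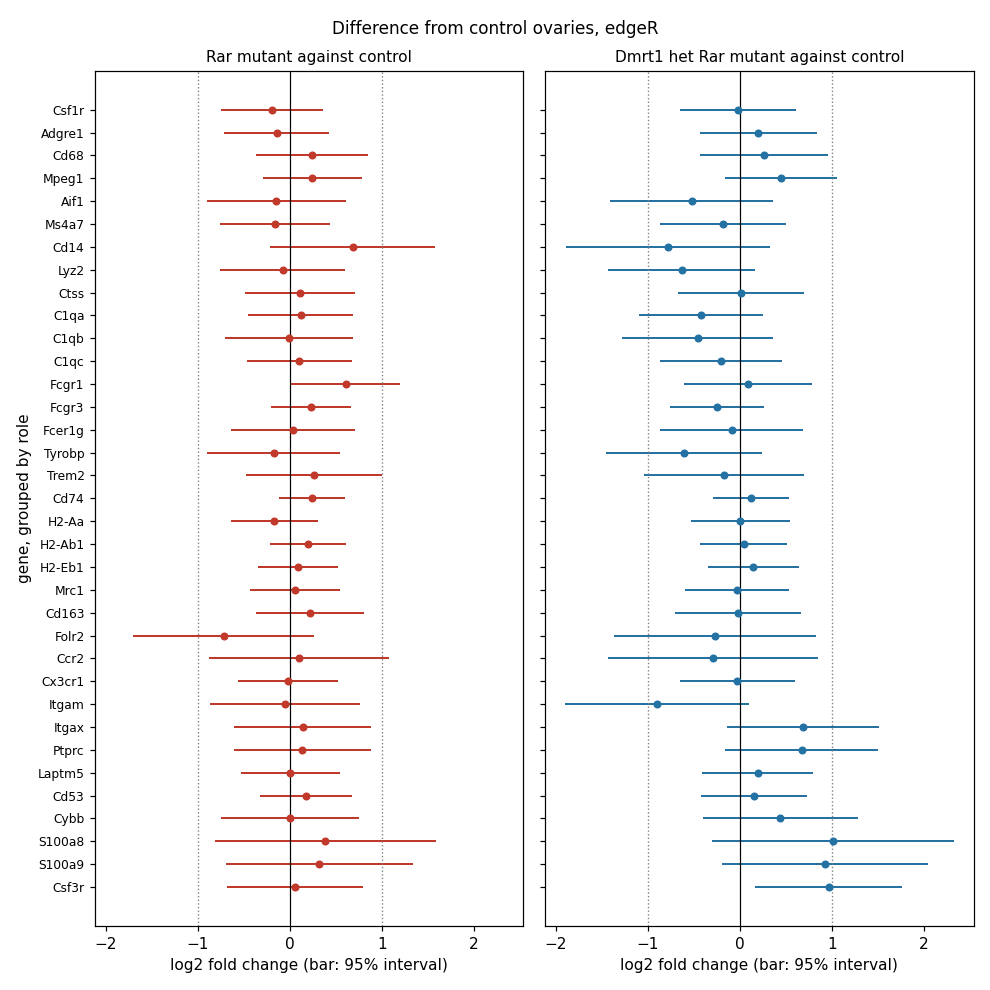
Log2 fold change (points) and 95% confidence interval (bars) of the 35 genes from edgeR, for Rar mutants (left) and Dmrt1 het Rar mutants (right) against the same 5 controls; dotted lines mark -1 and 1. All intervals but that of Fcgr1 on the left and that of Csf3r on the right cross 0, and the bars are wider on the right, where 18 of 35 lie within the dotted lines.

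Dmrt1 het Rar mutants against controls gave 0 of 35 called genes by edgeR, where 0.0194% of 20570 genes were called. DESeq2 called 0 of the 35 and 1.78% of all genes. Since both libraries of this group have lower title numbers, the genotype and that split can be separated only through control 1 and Rar mutant 1. The median log2 fold change was -0.01 over the 35 and -0.02 over all genes. Intervals within -1 and 1 were fewer, 18 of 35.

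Csf3r alone had an unadjusted p under 0.05, against 17.3% of all genes. It encodes the receptor for G-CSF, the growth factor of neutrophils. It had 1.56, 1.67, 0.78, 1.2985 and 1.21 CPM in controls, 1.46, 1.83 and 0.77 CPM in Rar mutants, and 2.44 and 2.68 CPM in Dmrt1 het Rar mutants. Both Dmrt1 het Rar mutants lay above all 8 other libraries. Their log2 fold change against controls was 0.97 ± 0.36, the error being an SE, with an edgeR adjusted p of 0.250.

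The other neutrophil genes, S100a8 and S100a9, encode the 2 chains of calprotectin. S100a8 had 1.88, 0.44, 0.60, 0.90 and 0.56 CPM in controls, 0.51, 2.08 and 0.86 CPM in Rar mutants and 1.98 and 1.58 CPM in Dmrt1 het Rar mutants. S100a9 had 2.66, 0.76, 1.37, 1.26 and 0.88 CPM in controls, 0.79, 2.66 and 1.76 CPM in Rar mutants and 2.78 and 2.50 CPM in Dmrt1 het Rar mutants. Both were high in the same 4 libraries, the 2 Dmrt1 het Rar mutants, control 1 and Rar mutant 2, which belong to all 3 groups. S100a8 rested on 11 to 50 counts a library and S100a9 on 19 to 66. Of the other 5 neutrophil genes examined, Cxcr2 had 46 counts over all 10 libraries, Mmp8 47 and Camp 78, while Ltf had 325 and Mmp9 342. These did not all follow the same libraries. In both Dmrt1 het Rar mutants Camp, Ltf and Mmp8 lay inside the control range, and Cxcr2 lay above it. Mmp9 had 1.35 CPM in Dmrt1 het Rar mutant 1, inside that range, and 2.32 CPM in Dmrt1 het Rar mutant 2, above it. Ltf was highest in Rar mutant 1, at 5.63 CPM, and had 0.083 CPM in Rar mutant 2.

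Groups did not overlap for 3 of the 35 genes in that comparison, Cd14, Itgam and Csf3r, against 28.4% of all genes. Itgam had 1.60, 1.59, 3.89, 2.20 and 1.57 CPM in controls, 1.26, 2.62 and 2.404 CPM in Rar mutants, and 1.18 and 1.14 CPM in Dmrt1 het Rar mutants. Both Dmrt1 het Rar mutants were the lowest of all libraries. Against controls Itgam had a log2 fold change of -0.90 ± 0.45 (SE; edgeR adjusted p = 0.3199). With the title-number set as a term, the log2 fold change was -0.30 for Itgam, 0.004 for Cd14 and 0.77 for Csf3r.

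Between Dmrt1 het Rar mutants and Rar mutants, edgeR called 0 of 35 members and 0.0% of all genes. DESeq2 called 0 of the 35 and 3.66% of all genes. An unadjusted p under 0.05 was met by Cd14 and Csf3r, against 16.9% of all genes. Cd14 had a log2 fold change of -1.47 ± 0.55 (SE; edgeR adjusted p = 0.250), and without Rar mutant 1, whose value was at the level of the Dmrt1 het Rar mutants, it was called at -1.89 (edgeR adjusted p = 0.0352). In that fit 1.64% of all 20462 tested genes were called. Without Rar mutant 1, both Dmrt1 het Rar mutants had lower title numbers and all remaining Rar mutants higher ones. Genotype and the title-number split therefore cannot be told apart between those libraries. With the title-number set as a term Cd14 had -0.63 (edgeR adjusted p = 0.746), and without Rar mutant 3 it had -1.04 (edgeR adjusted p = 0.461). Csf3r had 0.92 ± 0.41 (edgeR adjusted p = 0.290). Groups did not overlap for 7 of 35 genes, C1qa, Fcgr1, Fcgr3, Tyrobp, Itgam, Itgax and Csf3r, against 39.3% of all genes. The median was -0.09 over the 35 and -0.01 over all genes, and the interval lay within -1 and 1 for 15.

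With all 10 libraries in the edgeR fit, the split by title number was the one comparison in which a member passed the threshold. The fit held genotype as a term, so its estimate rested on control 1 against the other 4 controls and Rar mutant 1 against the other 2 Rar mutants. By edgeR, 1 of 35 genes was called, and it was higher in the lower numbers, whereas 11.7% of all genes were called and 7.72% were called higher. Ptprc was that gene, which encodes the phosphatase CD45 of all nucleated blood cells. It had 10.6, 7.87, 5.40, 4.64 and 4.18 CPM in controls, 10.5, 5.98 and 5.15 CPM in Rar mutants, and 11.3 and 9.61 CPM in Dmrt1 het Rar mutants. The 4 lower-numbered libraries lay from 9.61 to 11.3 CPM and the other 6 from 4.18 to 7.87 CPM, with no overlap.

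Ptprc had a log2 difference of 0.93 ± 0.23 (SE; edgeR adjusted p = 0.0316). Its call was lost when any 1 of 6 libraries was left out, with edgeR adjusted p of 0.188 when control 1 was dropped, 0.158 when Rar mutant 1 was, 0.0612 for control 4, 0.0570 for Rar mutant 2, and 0.0550 and 0.0545 for Dmrt1 het Rar mutants 1 and 2. Calls over all genes fell too, from 2414 to 217 without control 1 and to 118 without Rar mutant 1. The log2 difference itself stayed between 0.89 and 1.05 in those fits and in the fits without any other library.

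At an unadjusted p under 0.05 stood 7 of 35 members, against 31.8% of all genes. Higher in the lower numbers were Ptprc, Adgre1, Ccr2, H2-Aa, H2-Eb1 and Cybb, and lower was Cd14. DESeq2 called 4 of them, Adgre1, Cybb, Ptprc and Ccr2, against 20.3% of all genes. Groups did not overlap for 3, Adgre1, Ptprc and Cybb, against 22.6% of all genes. Each of these counts is a smaller share of the 35 than the share of all genes beside it.

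Adgre1 had 15.1, 11.5, 11.6, 10.1 and 11.1 CPM in controls, 15.4, 10.6 and 6.31 CPM in Rar mutants and 14.7 and 12.7 CPM in Dmrt1 het Rar mutants. Its log2 difference between the sets was 0.64 ± 0.20 (SE; edgeR adjusted p = 0.0624). Cybb encodes the catalytic subunit of the phagocyte NADPH oxidase. It had 11.5, 11.3, 9.11, 7.04 and 6.63 CPM in controls, 15.4, 6.85 and 5.07 CPM in Rar mutants and 11.4 and 13.4 CPM in Dmrt1 het Rar mutants. For both genes the 4 lower-numbered libraries were the 4 highest, though for Cybb control 2 was close to Dmrt1 het Rar mutant 1.

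Ccr2, the receptor by which monocytes leave the marrow and enter tissue, had the widest range of all members, 5.04-fold between the lowest and the highest library in CPM. It had 10.5, 6.80, 3.62, 7.52 and 6.43 CPM in controls, 12.99, 6.85 and 2.58 CPM in Rar mutants and 5.89 and 5.53 CPM in Dmrt1 het Rar mutants. Control 1 and Rar mutant 1 were its highest libraries, while the Dmrt1 het Rar mutants lay inside the range of the higher numbers.

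H2-Aa had 78.3, 56.7, 57.4, 47.8 and 37.4 CPM in controls, 56.8, 41.7 and 49.8 CPM in Rar mutants and 59.7 and 51.8 CPM in Dmrt1 het Rar mutants. H2-Eb1 had 45.5, 29.8, 32.4, 25.6 and 24.2 CPM in controls, 35.9, 30.4 and 34.1 CPM in Rar mutants and 33.2 and 36.7 CPM in Dmrt1 het Rar mutants. Both were highest in control 1, as were Cd74 at 77.6 CPM and H2-Ab1 at 37.6 CPM, whose promoter windows were not searched. The log2 difference between the sets was 0.50 for H2-Aa and 0.47 for H2-Eb1 (edgeR adjusted p of 0.0780 and 0.0775).

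The difference between the sets moved with the length of the gene. Over the 35 genes, Spearman's rho between summed exon length and the log2 difference was 0.39, and over 20406 tested genes with a length it was 0.38. These are descriptions across genes, which share the same libraries. Of 7 members longer than 5000 bases (Itgam, Cd163, Csf1r, Cybb, Mrc1, Ccr2 and Ptprc), 6 had a positive difference, with a median of 0.52, where all genes of that length had a median of 0.24. Of 9 members of at most 1500 bases, 4 were positive and the median was -0.23, against -0.35 for all genes of that length. Ptprc, the called gene, is the longest member, with 18313 exonic bases on chromosome 1 (138062861 to 138175708, GRCm38). The part of length in its difference was not tested.

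**Figure D4:**
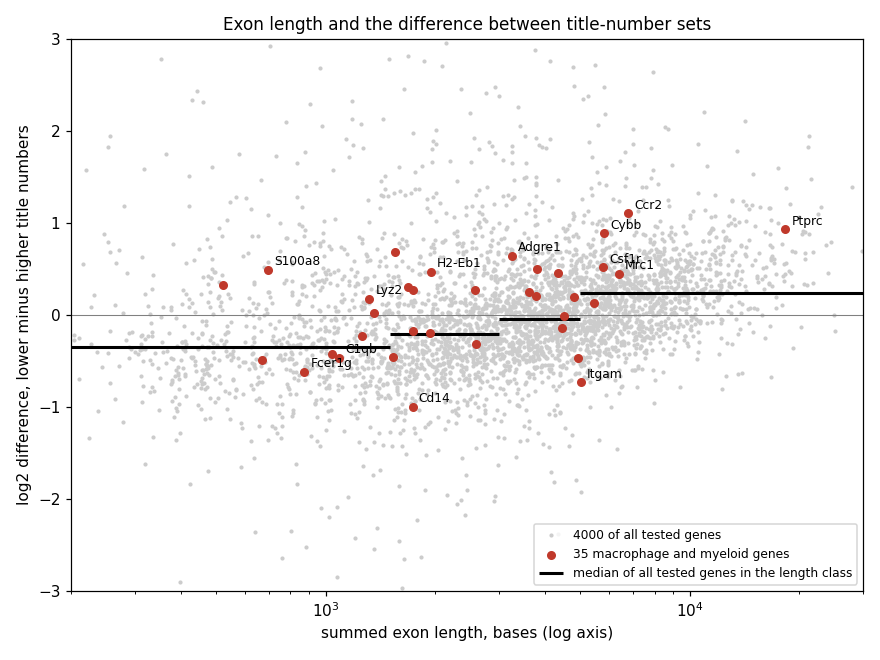
Log2 difference between libraries with lower and higher title numbers (y axis, edgeR) against summed exon length (x axis, log scale) for the 35 genes (red) and a random 4000 of all tested genes (grey; points beyond the axes are not drawn), with black bars at the median of all tested genes in each of 4 length classes. The black bars climb from -0.35 to 0.24 with length, and the red points climb in the same direction, Ptprc, Ccr2 and Cybb at the upper right.

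Other genes of the same pathways were examined in 8 lists of ligands, chemokines, complement, MHC class II factors, scavengers, Fc receptor signalling, oxidase subunits and cytokines. Of their rows, 95 were tested in the pooled comparison and 105 in the others, and 0 were called in either direction in any of the 4 genotype comparisons. Over all genes edgeR called 0.111% in the pooled comparison and 0.00972% in Rar mutants against controls. It called 0.0194% in Dmrt1 het Rar mutants against controls and 0.0% between the mutant groups. With so few calls over all genes, a count of 0 does not set these lists apart. The smallest adjusted p in Rar mutants against controls was that of Lyve1, a hyaluronan receptor of lymphatic endothelium and of a class of resident macrophages. It had 8.72, 6.68, 9.11, 8.42 and 7.48 CPM in controls, 13.3, 20.9 and 53.0 CPM in Rar mutants and 11.4 and 20.9 CPM in Dmrt1 het Rar mutants. All 5 Rar-deleted libraries lay above all 5 controls, and over all genes these groups did not overlap, in either direction, for 1.76%. The log2 fold change in Rar mutants was 1.85 ± 0.37 (SE; edgeR adjusted p = 0.105). In the pooled comparison it was 1.57 ± 0.37 (edgeR adjusted p = 0.251). Mrc1, Cd163 and Folr2, which mark the same class of macrophage, had log2 fold changes of 0.06, 0.22 and -0.72 in Rar mutants against controls. F13a1, also listed for resident macrophages, had 12.0, 16.9 and 4.04 CPM in Rar mutants 1 to 3 and 4.70 to 7.63 CPM in controls. It had 4.63 and 3.64 CPM in Dmrt1 het Rar mutants. Over the 8 genes of that marker list the median log2 fold change in Rar mutants was 0.14, and 0 were called. Their sum was 64.4, 71.7 and 84.1 CPM in Rar mutants 1 to 3, above the 35.8 to 52.4 CPM of controls. Dmrt1 het Rar mutants had sums of 47.7 and 51.1 CPM. In Rar mutant 3, Lyve1 made up 53.0 CPM of the sum. How often sums of other genes would part the groups in this way was not tested.

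Among ligands, Csf1, the growth factor read by Csf1r, had 17.6 ± 6.40 CPM in Rar mutants (SD, n = 3) and 10.2 ± 1.41 CPM in controls (n = 5), a log2 fold change of 0.78 ± 0.23 (SE; edgeR adjusted p = 0.262). The transcription factor gene Runx1 had 139 ± 108 CPM against 34.6 ± 14.3 CPM (edgeR adjusted p = 0.157). Among cytokines, Il6 had 4.49 ± 5.43 CPM against 0.25 ± 0.14 CPM (edgeR adjusted p = 0.148), and of the chemokines Ccl7, a ligand of Ccr2, had 2.17 ± 1.49 CPM against 0.45 ± 0.30 CPM (edgeR adjusted p = 0.213). In complement, C4b had 11.1 ± 1.15 CPM against 5.71 ± 1.67 CPM (edgeR adjusted p = 0.161). None of these passed the threshold. Csf1 was 10.3, 22.05 and 20.5 CPM in Rar mutants 1 to 3, Runx1 33.9, 135 and 249 CPM, Il6 0.24, 2.62 and 10.6 CPM, and Ccl7 0.47, 3.24 and 2.79 CPM. Rar mutant 1 lay inside the control range for these 4 genes, and the high values were those of Rar mutants 2 and 3. These libraries also had the raised sums of ovulation markers, though not the same markers raised to the same extent. The part of those markers in these values was not tested.

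Along the title-number split, 2 of the 105 tested rows of the pathway lists were called, both higher in the lower numbers. Over all genes 11.7% were called and 7.72% were called higher. Ciita, the master switch of MHC class II genes, was 1 of the 2. It had 2.57 ± 0.35 CPM in the 4 lower-numbered libraries and 1.32 ± 0.38 CPM in the other 6 (edgeR adjusted p = 0.049). The 4 MHC class II members had positive log2 differences on the same axis, 0.30 for Cd74, 0.50 for H2-Aa, 0.27 for H2-Ab1 and 0.47 for H2-Eb1, none of them called. The 13 tested genes of the MHC class II pathway list, Ciita among them, did not share that direction. Their median was -0.01, against -0.03 over all genes.

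Markers of other blood cells were summed over the genes of each list within each library. T and NK cell markers ran from 3.90 to 6.14 CPM, mast cell markers from 0.31 to 2.52 CPM and B and plasma cell markers from 7.73 to 20.98 CPM. Erythroid markers ran from 297 to 2706 CPM. Summed monocyte markers ran from 59.8 to 152 CPM in 9 libraries and stood at 524 CPM in Rar mutant 3. In that library Nr4a1 accounted for 386 CPM and Plac8 for 126 CPM. The 2 listed markers of classical monocytes went opposite ways there. Ccr2 was at its lowest of all 10 libraries, while Ly6c2 had 4.12 CPM, against 2.06 to 3.28 CPM in controls and 4.32 CPM in Rar mutant 2.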

How the data were processed

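PolyA RNA of 10 ovary libraries was measured. Per the submitters' processing notes, Trimmomatic 0.32, STAR 2.4.2a, SAMtools 1.0 and DESeq2 1.12.3 were used with the build GRCm38 (mm10), while the counting tool and annotation are not given in the sources used here. The authors deposited raw counts per gene and FPKM values, which follow size factors (CV 0.0390%) more closely than total counts (6.12%), and a table with p-values and adjusted p-values, used only to look up the members.

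The main test was edgeR 4.0.16's quasi-likelihood F test under R 4.3.3 (TMM scaling, filterByExpr, robust), two-sided, with Benjamini-Hochberg adjustment over all genes tested; the test was checked on simulated data. The pooled comparison used a 2-group fit, the others a 3-group fit. Each SE is the fold change over the square root of its F statistic. DESeq2 1.42.0, RLE factors, no filter, a title-number term, a replicate block and leaving out each library were alternatives. CPM were computed from counts with TMM factors. A count of 0 allows 3 counts, covering counting error only. Exon lengths and overlaps came from GENCODE M21. The members, the 8 pathway lists and 14 marker lists were chosen with earlier results of these data known. Named genes were members called, with unadjusted p under 0.05 or among the 5 most abundant, and up to 3 genes with the smallest p per pathway list. Trem2, Itgam, F13a1, Ly6c2, the marker sums of resident macrophages and dendritic cells, and the low end of the FPKM order were described after their values were seen. A result for 1 gene of the pathway lists is not reported here.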

Additional observations from a re-analysis of the deposited data

Results flagged for a closer look

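Within the 5 controls, a library stood far from the others for 2 of the genes. Trem2 was 14.9 CPM in control 3 and 4.90 to 7.51 CPM in the other 4. Itgam was 3.89 CPM in control 3 and 1.57 to 2.20 CPM in the other 4. Each gap took more of the range than Dixon's 95% critical value for 5 samples allows. Chance flags about 1 in 20 groups, and the genes of the set are not independent of each other.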

How the results depend on the processing

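The count of called members stayed at 0 of 35 under every alternative in the pooled comparison and in each mutant group against controls. Between the mutant groups it ranged from 0 to 1 with each library left out in turn, the 1 being Cd14 without Rar mutant 1. Between the mutant libraries left in that fit, genotype and the title-number split coincided. For the title-number split it was 4 with DESeq2 and ranged from 0 to 3 with each library left out. No called value changed sign. Medians of the 35 genes moved by less than the SD of library medians among controls, 0.26, and ranged over the alternatives from -0.07 to 0.14 (pooled), -0.06 to 0.23 (Rar mutants), -0.15 to 0.08 (Dmrt1 het Rar mutants), -0.22 to 0.06 (between mutants) and 0.05 to 0.29 (title-number split), so the sign of the first 4 depended on the alternative.

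Replicate numbers did not pair the libraries: correlations of same-numbered libraries ran from -0.09 to 0.44. With the replicate block, 0 members were called in each genotype comparison and the medians were -0.07, -0.05, -0.15 and -0.13 in the order above. No block was fitted for the title-number split, where its estimate would have rested on few libraries. Where a group was left with 1 library, that library was assumed to vary like the rest. Genes such as Folr2 and S100a8, with few counts per library, carry wide intervals.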
